A study of Mus musculus with 12 samples.

Results

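The genes described here mark the spiral ganglion neurons of the mouse cochlea and their subtypes: Calb2, Calb1, Lypd1, Pou4f1, Runx1, Pvalb, Th, Gata3 and Prox1. They were taken by name, as all non-control probes whose gene name on the array equals one of these symbols, a rule that holds no measured value. All 9 genes were found, with 57 probes, among 19505 genes on the array. The samples were cochleae of male C57BL/6 mice aged 6 weeks, cut into the apex (apical turn), the middle turn and the base (basal turn), with 4 arrays per turn and 25 ng of total RNA behind each array. No treatment of the mice is named, and the 3 turns stand for positions along the frequency map of the cochlea, from low frequencies at the apex to high frequencies at the base. Per the study's methods the tissue of a turn held the ganglion neurons together with the organ of Corti and the lateral wall, and 4 mice were used, so turns from the same mice lie on different arrays, and which arrays share a mouse is not given in the sources used here. In such whole tissue, fewer cells of a type and less RNA per cell cannot be told apart. The 3 turns lay on 3 different slides, and slide and turn cannot be told apart either.

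Spiral ganglion neurons carry the signal of the hair cells to the brainstem. Most are type I neurons, which contact inner hair cells through thick myelinated fibers, and a small population of type II neurons contacts outer hair cells. Type I neurons fall into subtypes known from single-cell work: calretinin (Calb2) is highest in subtype Ia, calbindin (Calb1) in Ib, and Lypd1 together with the transcription factor Pou4f1 (Brn3a) in Ic, while Runx1 is found in Ib and Ic. Parvalbumin (Pvalb) is a calcium buffer of the neurons at large, tyrosine hydroxylase (Th), the rate-limiting enzyme of catecholamine synthesis, marks adult type II neurons, and Gata3 and Prox1 are transcription factors of the developing ganglion. Several of these genes are not restricted to neurons: calretinin, calbindin and parvalbumin occur in hair cells, Prox1 and Gata3 in supporting cells, Gata3 in other cochlear cells and Runx1 in blood cells.

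The probes are 60 bases long, and a few of them carry the results below. The first pair lies at matching places in the transcripts of the paralogs Calb2 and Calb1 and is shown because the probes of these paralogs are most alike there. Laid side by side without gaps, the 2 probes match at 48 of 60 bases, with a longest shared run of 12 bases; capitals mark the 12 bases that differ. The Calb2 probe lies at chr8:112669552-112669611 (minus strand) and the Calb1 probe at chr4:15831409-15831468 (plus strand) of mm9, the build of the array design, and the annotation of these places beyond the gene name was not used here. No probe of the 9 genes shared 20 bases in a row with a probe of another gene.
Calb2, transcript base 708: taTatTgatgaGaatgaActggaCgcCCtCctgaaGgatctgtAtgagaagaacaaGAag
Calb1, transcript base 747: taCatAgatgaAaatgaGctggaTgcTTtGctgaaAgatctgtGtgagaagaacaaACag
The next probes are shown because probes of 1 gene differed. In Th, the probe at chr7:150082835-150082894 (minus strand) had the smallest difference between apex and base and the probe at chr7:150079913-150079972 (minus strand) was dim at the base. In Runx1, the probe at chr16:92668953-92669012 (minus strand) was the only one called, and its neighbor in the transcript at chr16:92613847-92613906 (minus strand) was not.
Th, transcript base 433: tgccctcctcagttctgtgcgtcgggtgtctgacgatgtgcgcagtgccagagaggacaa
Th, transcript base 1282: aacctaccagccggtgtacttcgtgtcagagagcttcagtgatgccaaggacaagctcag
Runx1, transcript base 705: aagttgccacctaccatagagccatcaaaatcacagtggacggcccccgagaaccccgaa
Runx1, transcript base 864: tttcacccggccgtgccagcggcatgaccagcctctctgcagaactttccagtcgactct

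Most of the marker genes had their lowest level at the base, with the middle turn close to the apex. Levels are given as scaled signal, the fluorescence intensity of a gene's probes after each array was brought to a common 75th percentile, and differences as log2 of the ratio between turns. A gene was called when limma's contrast had a Benjamini-Hochberg adjusted p under 0.05 over all genes. From base to apex 7 of the 9 genes rose and 0 fell, where 39.1% of all genes were called, 17.7% higher at the apex and 21.5% higher at the base. From base to middle turn 6 of 9 rose and 0 fell, where 20.8% of all genes were called, 11.7% higher in the middle turn and 9.17% higher at the base. Between apex and middle turn 1 of 9 was called, higher at the apex, where 12% of all genes were called, 4.42% higher at the apex and 7.54% higher in the middle turn. When an adjusted p of the moderated F test under 0.05 and a difference of 2-fold were asked for instead, 6 genes passed between apex and base, 6 between middle turn and base and 0 between apex and middle turn, where 4.38%, 2.66% and 0.436% of all genes passed. The median difference of the 9 genes was 1.29 from base to apex and 1.37 from base to middle turn, where the medians over all genes were -0.04 and 0.04. The 4 arrays of each turn did not overlap in 6 of the 9 genes between apex and base (38.3% of all genes), in 5 between middle turn and base (24.1%) and in 2 between apex and middle turn (20.7%). The comparisons with the base share its 4 arrays and are not independent of each other.

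**Figure D1:**
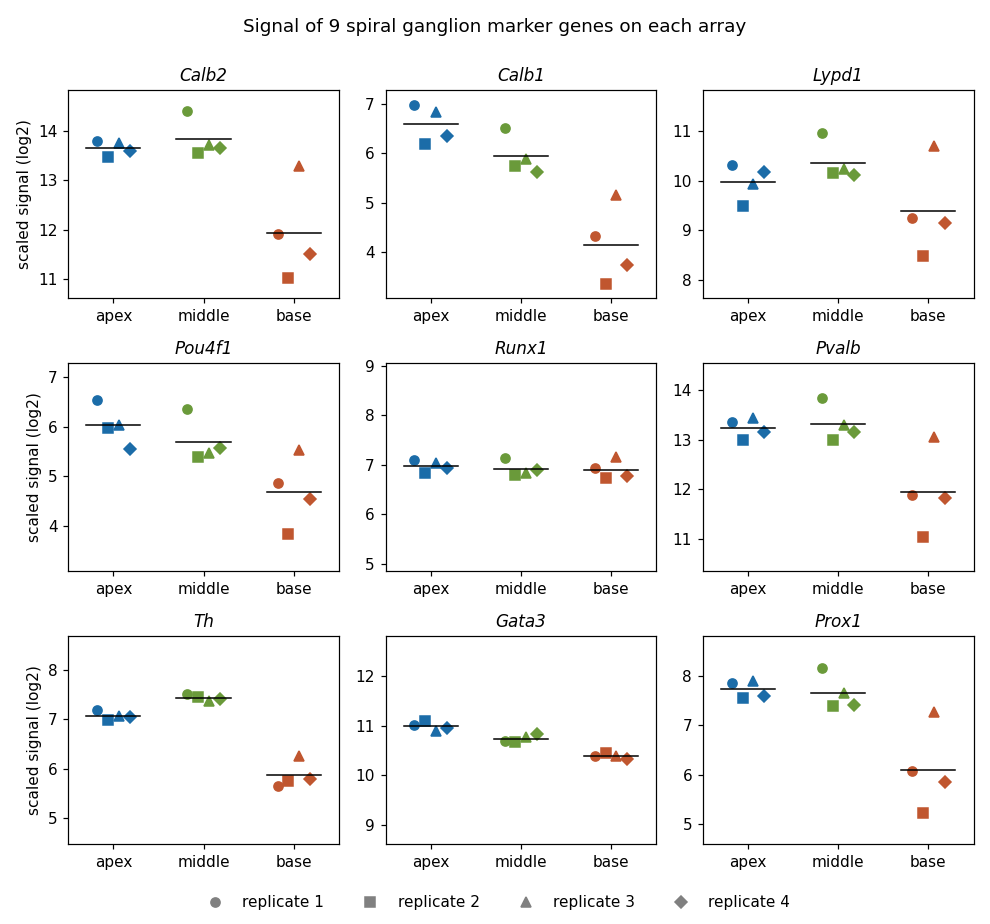
Log2 scaled signal (y axis) of each of the 9 marker genes at the apex, middle turn and base, with 1 symbol per replicate and a line at the mean of 4 arrays; every panel spans the same number of log2 units. The base arrays spread widely in Calb2, Calb1, Pvalb, Lypd1, Pou4f1 and Prox1, with base replicate 3 on top, while Gata3 and Th are tight and Runx1 is level.

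Calb2 encodes calretinin, an EF-hand calcium buffer and the marker of subtype Ia. Its scaled signal was 14250, 11250, 13860 and 12270 at the apex (replicates 1 to 4), 21500, 12010, 13470 and 12810 in the middle turn, against 3833, 2094, 9931 and 2919 at the base. All base arrays lay below every apex and middle array, and base replicate 3 came nearest to them. The apex exceeded the base 3.29-fold (log2 difference 1.72, SE 0.389, adjusted p = 0.0046) and the middle turn exceeded it 3.72-fold (1.90, adjusted p = 0.0072). Apex and middle turn differed by -0.18 (95% interval -1.03 to 0.68, adjusted p = 0.79), which did not pass.

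Calb1 encodes calbindin, the related buffer that marks subtype Ib. It read 126, 72.9, 115 and 81.4 at the apex, 91.2, 53.5, 58.8 and 49.4 in the middle turn, against 20, 10.3, 35.9 and 13.4 at the base. The base lay below both other turns on every array, and apex and middle turn overlapped. At the apex Calb1 exceeded its level at the base by 2.44 (SE 0.353, 5.42-fold, adjusted p = 0.00032). The middle turn exceeded the base by 1.79 (adjusted p = 0.006), and the apex exceeded the middle turn by 0.65 (95% interval -0.13 to 1.43, adjusted p = 0.23), which did not pass. The Calb1 signal was low: of its 8 probes, 1 was well above background on all 12 arrays, 1 on none, and the probe at transcript base 231 on no base array, where the apex signal was at least 3.1-fold higher. With a normexp background correction and an offset of 50, the apex to base difference was 0.982 (adjusted p = 0.000194) and the middle to base difference 0.705 (adjusted p = 0.00548), both still called. Calb1 exceeded Calb2 in its apex to base difference in the values above but not with normexp (1.697 for Calb2) or with 16 added to each signal (1.659 for Calb1 and 1.712 for Calb2).

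Lypd1 encodes a membrane-anchored protein of the Ly6 family and marks subtype Ic. It read 1273, 717, 977 and 1161 at the apex, 1995, 1139, 1207 and 1117 in the middle turn, against 607, 359, 1659 and 569 at the base. Base replicate 3 lay above all apex arrays and the other 3 base arrays lay below all of them. The apex to base difference of 0.58 did not pass (95% interval -0.29 to 1.46, adjusted p = 0.29), nor did the middle to base difference of 0.97 (0.10 to 1.85, adjusted p = 0.11). The call turned on that array: without base replicate 3 the differences were 1.016 (adjusted p = 0.0124) and 1.407 (adjusted p = 0.00414). Apex and middle turn differed by -0.39 (95% interval -1.27 to 0.48).

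Pou4f1, a POU-domain transcription factor of sensory neurons, is a second marker of subtype Ic. It read 92.6, 63.1, 65.8 and 46.6 at the apex, 82.3, 42, 44.5 and 47.4 in the middle turn, against 28.9, 14.2, 46 and 23.3 at the base. The lowest apex array and the highest base array, again replicate 3, lay almost together without crossing. The apex exceeded the base 2.53-fold (1.34, SE 0.344, adjusted p = 0.0093). The middle to base difference of 1.01 (95% interval 0.26 to 1.77) missed the threshold with an adjusted p of 0.059. It passed without base replicate 3 (1.291, adjusted p = 0.014), with the sample number as a block (adjusted p = 0.0303), by the F test with a 2-fold difference (adjusted p = 0.0214), with only probes well above background (adjusted p = 0.0437) and with the log2 of the mean signal (0.908, adjusted p = 0.0433). The apex to middle difference was 0.33 (95% interval -0.43 to 1.08), which did not pass, and the apex to base difference was 0.49 with normexp (adjusted p = 0.0155). Pou4f1 had 2 probes, and its signal at the base was low. The probe at transcript base 1494 was well above background on all 12 arrays, with an apex to base difference of 1.00. The probe at transcript base 230 was well above background on 1 of the 4 base arrays, with a difference of 1.67.

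Runx1, a Runt-domain transcription factor of subtypes Ib and Ic, showed no called difference. It read 138, 115, 132 and 122 at the apex, 140.5, 111, 115 and 119.6 in the middle turn, against 122, 106, 144 and 110 at the base. The 3 turns overlapped throughout. The apex to base difference was 0.08 (95% interval -0.16 to 0.31, adjusted p = 0.64), the apex to middle difference 0.06 (-0.17 to 0.29) and the middle to base difference 0.02 (-0.22 to 0.25). The sign of the apex to base difference was not fixed by the data, being -0.023 with quantile normalization, -0.042 with scaling to the median and -0.494 (adjusted p = 0.00316) with scaling to spike-in probes. The blood and marrow marker list, whose cells also express Runx1, ranged widely at the apex, from a mean log2 signal of 7.56 to 10.18, against 7.47 to 7.92 at the base, and 2 of its 12 genes were called higher at the apex (Ltf and Cd79a). That count was 1 or 2 under the other settings (1 with quantile, median or spike-in scaling), and 1 to 7 when each array was left out in turn, with 7 without apex replicate 3. Its part in the Runx1 values was not tested.

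Pvalb, the EF-hand calcium buffer parvalbumin, read 10500, 8166, 11120 and 9185 at the apex, 14760, 8172, 10010 and 9074 in the middle turn, against 3804, 2094, 8470 and 3646 at the base. Base replicates 1, 2 and 4 lay below all others and base replicate 3 lay within the range of the apex and of the middle turn. The apex exceeded the base 2.44-fold (1.29, SE 0.345, adjusted p = 0.012) and the middle turn exceeded it 2.58-fold (1.37, adjusted p = 0.017), whereas apex and middle turn differed by -0.08 (95% interval -0.84 to 0.68). The middle to base call was lost without middle replicate 1 (1.193, adjusted p = 0.0544) and when only those 2 turns were fitted (adjusted p = 0.0519), and the apex to base call with scaling to spike-in probes (0.718, adjusted p = 0.051).

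Th had its highest mean in the middle turn, as did Calb2, Pvalb and Lypd1. It read 145, 127, 133 and 132 at the apex, 180.5, 174, 165 and 169 in the middle turn, against 49.9, 53.6, 76.7 and 55.5 at the base. No array of 1 turn overlapped with an array of another. The apex exceeded the base 2.31-fold (1.21, SE 0.113, adjusted p = 1.8e-05) and the middle turn exceeded it 2.96-fold (1.57, adjusted p = 1.4e-05). The apex lay below the middle turn by -0.36 (95% interval -0.61 to -0.11), which missed the threshold with an adjusted p of 0.061. It passed in 8 of the alternative settings and missed in 19. Without base replicate 3 the difference was the same but passed (adjusted p = 0.00607), because the base arrays enter the spread estimate shared by the turns. It also passed with the 2 turns alone (adjusted p = 0.014) and with scaling to spike-in probes (-0.62, adjusted p = 0.00449). With normexp the apex to base difference was 0.529 (adjusted p = 4.88e-05).

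Gata3, a zinc-finger transcription factor, formed the only gradient in which every step was called. It read 2065, 2168, 1896 and 1984 at the apex, 1643, 1631, 1733 and 1810.0 in the middle turn, against 1338, 1399, 1341 and 1276 at the base. The turns did not overlap and the SD within a turn was 0.055 to 0.082 log2 units. The apex exceeded the middle turn by 0.25 (SE 0.057, adjusted p = 0.019), the middle turn the base by 0.35 (adjusted p = 0.0022), and the apex the base by 0.60 (1.51-fold, adjusted p = 2e-05). These steps were of the size of a scaling choice: scaled to spike-in probes they were -0.009, 0.037 and 0.028 and none was called, while the median of all genes from base to apex was -0.606 under that scaling. The apex to middle call was also lost without apex replicate 1, apex replicate 2 or middle replicate 2 (adjusted p = 0.0521, 0.064 and 0.0543).

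Prox1, a homeodomain transcription factor of neurons and supporting cells, read 232, 189, 237 and 193.5 at the apex, 285, 167, 201 and 171 in the middle turn, against 67.7, 37.6, 154 and 57.5 at the base. All base arrays lay below all others, with replicate 3 nearest to them. The apex exceeded the base 3.07-fold (1.62, SE 0.347, adjusted p = 0.0034) and the middle turn exceeded it 2.92-fold (1.54, adjusted p = 0.011), and apex and middle turn differed by 0.07 (95% interval -0.69 to 0.84). With normexp the apex to base difference was 0.95 (adjusted p = 0.00159).

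**Figure D2:**
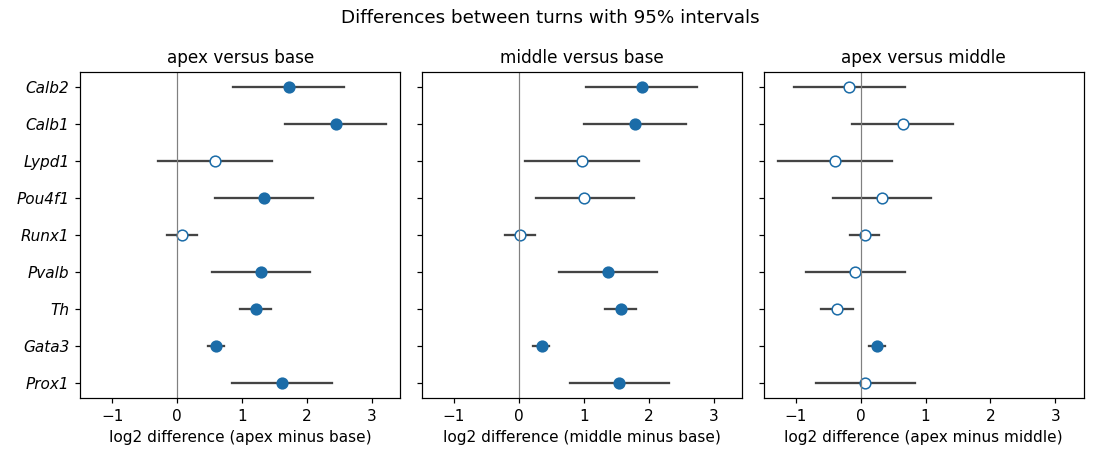
Log2 differences between turns (x axis) for the 9 marker genes, with bars for the 95% interval of the limma contrast and filled points where the adjusted p is under 0.05. The filled points are 7 for apex against base, 6 for middle turn against base and Gata3 alone for apex against middle turn.

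The arrays of a turn did not scatter independently from gene to gene. Of the 9 genes, 8 were highest among the base arrays in replicate 3, all but Gata3, and 7 were lowest in replicate 2, all but Gata3 and Th; over all genes, base replicate 3 was the highest base array for 20% and base replicate 2 the lowest for 31.4%. The highest base array exceeded the lowest 4.74-fold in Calb2, 4.61-fold in Lypd1 and 4.09-fold in Prox1, but 1.54-fold in Th, 1.35-fold in Runx1 and 1.1-fold in Gata3. Among the middle arrays, replicate 1 was the highest in 8 of 9 genes. After each turn's mean was removed, Calb2 correlated over the 12 arrays with Prox1 at r = 0.992, with Pvalb at 0.977 and with Lypd1 at 0.959, whereas Gata3 correlated with the other 8 genes at -0.32 to -0.121. Runx1, level between turns, correlated with Calb1 at 0.951 and with the others except Gata3 at 0.713 to 0.907. The base arrays weigh most where they spread most, as in Calb2, whose SD was 0.97 log2 units at the base, 0.38 in the middle turn and 0.16 at the apex. These coefficients describe 12 arrays whose slides are shared within a turn.

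Other neuron genes moved in the same arrays. A list of 18 measured neuron genes (neurofilaments, synaptic and vesicle genes and neuronal transcription factors) had a mean log2 signal of 9.96 to 10.27 at the apex, 9.82 to 10.44 in the middle turn, against 8.99, 8.27, 9.76 and 8.68 in base replicates 1 to 4. Of these 18, 16 were highest among the base arrays in replicate 3 and 17 lowest in replicate 2. From base to apex 13 of 18 rose and 0 fell, with a median difference of 1.34, led by the synaptic calcium sensor Syt1 (2.46, adjusted p = 1.9e-06) and the neurofilament chains Nefh (2.01, adjusted p = 0.0023) and Nefm (2.00, adjusted p = 0.0019). With scaling to spike-in probes 11 rose and 3 fell. Among the 5 that did not pass were Rbfox3, Uchl1, Ntrk2 and Ntrk3, named here after their values were seen. The 8 Schwann cell markers all rose from base to apex, with a median of 0.73 and Egr2 in front (1.17), but 1 of the 8 was called with scaling to spike-in probes. Their mean level likewise ran from 9.12 in base replicate 2 to 9.99 in base replicate 3. Hair cell markers did not set base replicate 3 apart, but base replicate 2 was the lowest base array for them too. Their mean level was 6.13, 5.79, 6.21 and 6.20 in base replicates 1 to 4. The part of neuron content per sample in the values of the marker genes was not tested.

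**Figure D3:**
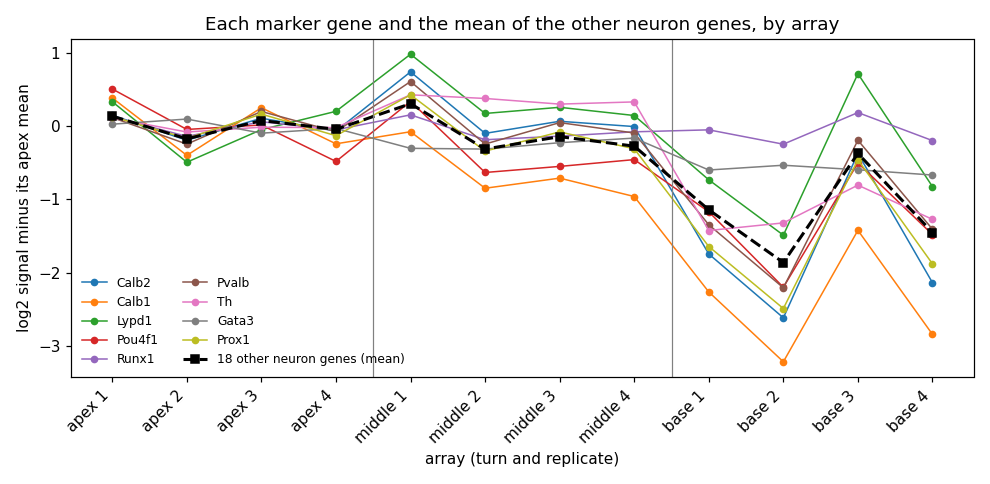
Log2 signal of each marker gene on each of the 12 arrays minus its own mean at the apex (y axis), with the mean of the 18 other neuron genes as a dashed black line. Most genes dip and peak with the dashed line at the base, where it lies lowest in replicate 2 and highest in replicate 3, while Runx1 does so slightly and Gata3 does not.

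Because neuron genes shared this spread, the markers of the 3 type I subtypes were also set against each other on the same array; these ratios were chosen after the values were seen, carry no test, and have a meaning only as shifts between turns, since probes differ in brightness. The log2 ratio of Lypd1 (Ic) over Calb2 (Ia) was -3.48, -3.97, -3.83 and -3.40 at the apex, -3.43, -3.40, -3.48 and -3.52 in the middle turn, against -2.66, -2.54, -2.58 and -2.36 at the base. The 4 base arrays stood together above all others, base replicates 2 and 3 included, by 1.14 over the apex (2.2-fold) and 0.92 over the middle turn (1.89-fold), with an SD within turns of 0.21 and 0.098. Lypd1 and Calb2 thus changed unequally, and under the other settings tried the shift, apex minus base, kept its direction at -1.32 to -1.036. Pou4f1, the second Ic marker, was not set against Calb2 on each array. Its apex to base difference was 1.34, nearer to that of Calb2 (1.72) than to that of Lypd1 (0.58). This order changed with the treatment of background. With normexp the difference was 0.49 in Pou4f1, nearer to Lypd1 (0.495) than to Calb2 (1.697). With 16 added to each signal it was 0.886, also nearer to Lypd1 (0.561) than to Calb2 (1.712). The middle to base difference of Pou4f1 was 1.01, nearer to that of Lypd1 (0.97) than to that of Calb2 (1.9). The shift is thus one between Lypd1 and Calb2, and the ratio does not tell which gene moved. It was not shown for subtype Ic. The ratio of Calb1 (Ib) over Calb2 was -7.27 to -6.82 at the apex, -8.02 to -7.81 in the middle turn and -8.11 to -7.58 at the base, so that the apex stood 0.83 above the middle turn (1.78-fold) without overlap, a shift of 0.626 with quantile normalization and 0.442 with normexp. Its apex to base shift of 0.72 changed sign with the treatment of background and was -0.716 with normexp and -0.053 with 16 added to each signal. Lypd1 over Calb1 was 3.09 to 3.83 at the apex, 4.36 to 4.50 in the middle turn and 4.92 to 5.53 at the base, and with normexp the apex to base shift went from -1.86 to -0.487, the apex to middle shift from -1.04 to -0.651 and the middle to base shift from -0.82 to 0.165. With 16 added to each signal the apex to base shift was -1.098 and the middle to base shift -0.198.

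**Figure D4:**
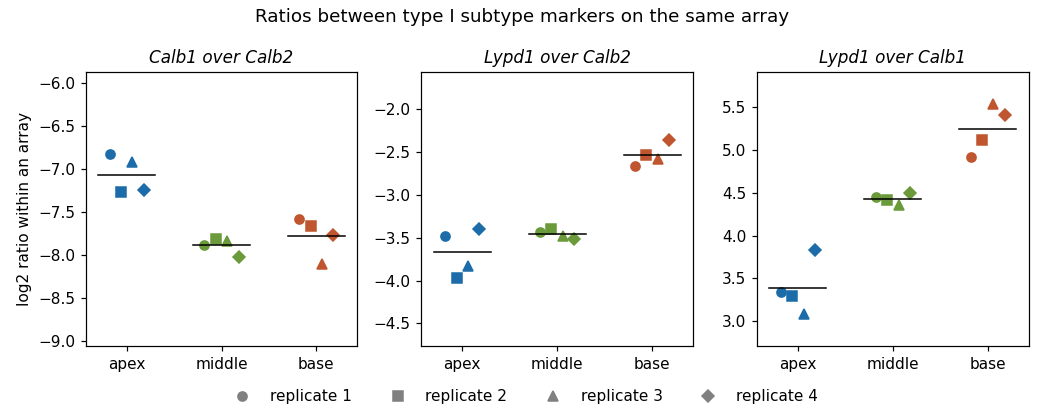
Log2 ratio of 2 marker genes on the same array (y axis) at the apex, middle turn and base, with 1 symbol per replicate and a line at the mean of 4 arrays. Lypd1 over Calb2 is higher on all 4 base arrays (-2.66 to -2.36) than on any apex or middle array. Calb1 over Calb2 is highest at the apex in the values drawn, but its order between apex and base changed with the treatment of background.

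At the level of single probes, 43 of the 57 were called higher at the apex than at the base and 0 higher at the base, where 18% of all 165865 probes were called higher at the apex and 34.4% in either direction. All probes of Calb1 (8), Calb2 (7), Gata3 (7), Pvalb (4), Prox1 (4) and Pou4f1 (2) were called, while 0 of 3 in Lypd1 were. The 7 Calb2 probes spanned 1.54 to 1.85 and the 4 Pvalb probes 1.27 to 1.32. The Calb1 and Calb2 probes printed above, matching at 48 of 60 bases, differed by 2.60 and 1.65 between apex and base. In Prox1 the probe at transcript base 2233 differed by 0.85 and the other 3 by 1.80 to 1.94.

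The probes of Th differed among themselves. Of its 11 probes 10 were called higher at the apex, including the probe at transcript base 33, which was well above background on 0 of 12 arrays. The 7 probes well above background on all 12 arrays had apex to base differences of -0.03 to 1.04. The probe at transcript base 433 read 268, 248, 242 and 231 at the apex and 245, 255, 261 and 247 at the base, a difference of -0.03 (adjusted p = 0.76). The probe at transcript base 1282 read 232, 192, 242 and 206 at the apex, 386, 297, 288 and 584 in the middle turn, against 10.3, 22.3, 81.5 and 28.8 at the base, a difference of 3.00 (adjusted p = 0.0011). Both lie in the same transcript. The 3 probes with differences over 2 were well above background on 0, 0 and 1 of the 4 base arrays. The probes at transcript bases 592 and 789 were well above background on no base array and were at least 1.46-fold and 2.26-fold higher at the apex, and at least 1.92-fold and 3.01-fold higher in the middle turn. The other catecholamine genes did not follow Th: of 8, 1 was called higher at the apex (Ddc, the next enzyme of the pathway, 0.54, adjusted p = 0.016) and 1 lower (Gch1, which makes the cofactor of Th, -1.20, adjusted p = 0.00038), and the median was -0.12; with scaling to spike-in probes 0 were higher and 7 lower. Dopamine beta-hydroxylase (Dbh) and the transporters Slc18a2, Slc6a2 and Slc6a3, named after their values were seen, were not called. Their signals were low, with turn means from 18.7 (Slc6a2 at the apex) to 43.9 (Dbh in the middle turn). The Ddc signal was low too, with means of 18.6 at the apex, 17.4 in the middle turn and 12.8 at the base. Its call was lost with quantile normalization, where 0 of the 8 catecholamine genes were called higher at the apex and 4 lower. The part of sympathetic or other catecholamine cells in the Th values was not tested.

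Runx1 had 1 called probe of 11, at transcript base 705, which read 1987, 1722, 1594 and 1255 at the apex and 1170, 1108, 1328 and 1061 at the base (0.48, adjusted p = 0.015). The lowest apex array lay below the highest base array. The neighbor at base 864 differed by 0.04 (adjusted p = 0.8). Runx1 is known to be transcribed from a distal and a proximal promoter. The 2 probes farthest upstream, 129681 bases or more from the next one, were well above background on 0 of 12 arrays, and the other 9 on all 12.

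**Figure D5:**
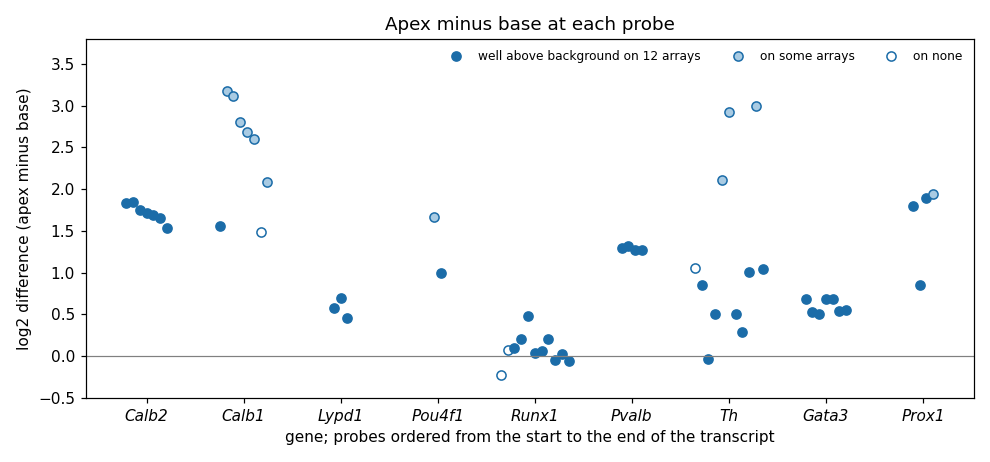
Log2 difference between apex and base (y axis) at each of the 57 probes, grouped by gene and ordered along the transcript, with fill showing on how many arrays the probe was well above background. Probes of Calb2, Pvalb and Gata3 lie close together, those of Th spread from -0.03 to 3.00, and Runx1 lies around 0.

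Genes linked to neuron subtypes outside the 9 moved in part. Of 8 such genes, 4 rose from base to apex, led by Lrrc52 (1.75, adjusted p = 1.2e-05), the metabotropic glutamate receptor Grm8 (1.01, adjusted p = 0.023) and the retinoid receptor Rxrg (0.76, adjusted p = 0.0038). The gene that fell, named after its value was seen, was Prph, peripherin, an intermediate filament of type II neurons, at -0.34 (adjusted p = 0.034), with mean signals of 101 at the apex, 164 in the middle turn and 128 at the base. The call was lost without apex replicate 2 or 4 or base replicate 3 or 4. With scaling to spike-in probes 1 of the 8 rose and 3 fell.

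Among 16 other EF-hand calcium-binding genes, 6 rose from base to apex, 1 fell and 9 did not pass, with a median of 0.09. Ocm, oncomodulin of outer hair cells, rose by 1.92 (adjusted p = 1.3e-05), and the neuronal calcium sensors Vsnl1 and Ncs1 by 1.52 (adjusted p = 0.0081) and 1.43 (adjusted p = 0.0064). The gene that fell, named after its value was seen, was S100b, a glial and supporting cell protein (-0.61, adjusted p = 0.00017). The balance turned with scaling to spike-in probes, under which 3 rose and 11 fell.

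Cell types that share the marker genes also differed between turns. All 13 measured hair cell markers rose from base to apex, with a median of 1.62, including the outer hair cell motor Slc26a5 (2.94), Ptprq (2.00) and Strc (1.87), and their mean level was 7.40 to 7.67 at the apex, 7.05 to 7.18 in the middle turn and 5.79 to 6.21 at the base. Of 7 supporting cell markers 4 rose, among them Sox2 (1.67) and Jag1 (0.99), and 1 fell, Cyp26b1 (-0.73), with mean levels of 6.82 to 7.01, 6.81 to 6.89 and 6.34 to 6.57 in the 3 turns. Of 6 vessel and lymph vessel markers 4 fell from base to apex, Flt4 most (-0.79), with mean levels of 7.14 to 7.26 at the apex and 7.39 to 7.59 at the base. In at least 1 turn, each of the 13 hair cell markers was measured well above background by some probe on its 4 arrays. With scaling to spike-in probes 9 of the 13 hair cell markers rose and 0 fell, 2 of the 7 supporting cell markers rose and 3 fell, and all 6 vessel markers fell. The part of hair and supporting cells in the values of Calb1, Calb2, Pvalb, Gata3 and Prox1 was not tested.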

How the data were processed

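Cyanine 3-labeled RNA was hybridized to 12 single-color Agilent exon arrays. The deposited intensity is the processed signal, which the authors' Feature Extraction software (version 10.7.3.1, per the file headers) made by background subtraction and a trend correction, without normalization between arrays; the deposited value table held the same intensities. Here 7914 control spots and 119 probes flagged on any array were left out, each array was scaled at its 75th percentile to 633.5, log2 was taken, and probes of a gene were averaged, which left 165865 probes of 19505 genes. The 75th percentile before scaling was 527.6 to 713.4 and 77.4% to 81.4% of spots were well above background; the number of arrays limits the precision. Turns, taken from the labels, were compared with limma 3.58.1 (lmFit and eBayes over 12 arrays, Benjamini-Hochberg adjustment) in R 4.3.3 after tests on simulated data. P-values cover only the spread between samples. Named outside the 9 genes were up to 3 called genes per list and, for each gene, the 3 most correlated, apart from a few genes that are not reported here; others are marked as named after their values were seen. The genes and lists were chosen with earlier results of these data known. Alternatives changed scaling, background, probe summary, filters, model and arrays.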

Additional observations from a re-analysis of the deposited data

Results flagged for a closer look

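Lypd1 in middle replicate 1 had a scaled signal of 1990, against 1120 to 1210 on the other 3 middle arrays. The gap was 0.866 of the turn's range on the log2 scale. This was the only value flagged as far from its turn among the 27 sets of 4 arrays examined. Chance marks about 5% of such sets. The same array also stood apart, without a flag, in Calb2 (21500, against 12010 to 13470) and Pou4f1 (82.3, against 42 to 47.4). Middle replicate 1 was the highest middle array for 8 of the marker genes, and middle replicate 4 for 1. Its deviation was thus not limited to Lypd1.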

How the results depend on the processing

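Over the settings tried, 6 or 7 of the 9 genes were called between apex and base, and 7 or 8 when each array was left out in turn, the eighth being Lypd1 without base replicate 3; between middle turn and base the counts were 5 to 7, and 5 to 8. The called probes numbered 31 to 43, and 41 to 46 without 1 array. Between apex and middle turn the count went from 1 to 2 with quantile normalization, scaling to the median, normexp, the log2 of the mean signal, 16 added to each signal and the 2 turns alone, the second gene being Th each time, and to 0 when the F test and a 2-fold difference were asked for; leaving out 1 array gave 0 to 2.

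Between apex and base, 45.1% of all called genes were higher in the apex, against 36.9% with quantile normalization, 26.3% with scaling to the median and 4.03% with scaling to 8 spike-in probes, and the median over all genes was -0.04, -0.08, -0.155 and -0.606. Under spike-in scaling Pvalb (0.718, adjusted p = 0.051) and Gata3 (0.028) lost their calls and Runx1 was called in the opposite direction (-0.494), so that 5 of the 7 calls held. The 8 spike-in probes themselves differed unequally from base to apex, by 0.12 to 0.6 with a median of 0.55. The cause of the shift over all genes was not tested.

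Runx1 turned from positive to -0.023, -0.042 and -0.494 between apex and base with quantile, median and spike-in scaling, to -0.078, -0.051 and -0.295 between middle turn and base, and between apex and middle turn to -0.199 (spike-in), -0.007 (normexp) and -0.008 (median over probes). Apex to middle differences turned for Gata3 (-0.009) and Prox1 (-0.185) with spike-in scaling and for Pvalb with quantile normalization (0.038). Without 1 array they lay between -0.268 and 0.012 in Calb2, -0.189 and 0.096 in Pvalb and -0.014 and 0.242 in Prox1, and the Runx1 middle to base difference lay between -0.056 and 0.104. With normexp Calb1 over Calb2 was -0.716 between apex and base (-0.053 with 16 added) and Lypd1 over Calb1 was 0.165 between middle turn and base; these ratios were chosen after seeing the data.

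Samples carry the numbers 1 to 4 in every turn. Same-numbered samples deviated together at a mean r of 0.095 (range -0.037 to 0.227, 12 pairs) and differently numbered ones at -0.031 (36 pairs), and 8 of 12 arrays correlated best with their own number. Some same-numbered pairs lay below 0. What a shared number stands for is not stated and was not tested, and pairing was not assumed. With the number as a replicate block 7, 1 and 7 genes were called (apex to base, apex to middle, middle to base), Pou4f1 being gained in the last (1.013, adjusted p = 0.0303), and 43 probes.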

Other observations

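The genes whose level over the 12 arrays was most like that of each marker, among 16503 genes with a probe well above background, are given as Pearson's r, which describes arrays that share slides within a turn. Calb2 was closest to Cdh9, Bex2 and Tmem163 (each r = 0.997), Pvalb to Lgi3 (0.998), Tagln3 and Dync1i1 (each 0.996), and Prox1 to the neuronal enolase Eno2 (0.999) and Iqsec3 (0.999). Calb1 was closest to Nin (0.993) and Spock2 (0.992). Pou4f1 was closest to Zfp248 (0.974), Snph and Mast1 (each 0.97), and Lypd1 to Resp18 (0.967), Igfbp6 (0.962) and Eno4 (0.961). Gata3 was closest to Lig1 (0.989), Mdk (0.989) and Foxf2 (0.986), Th to Rnps1 (0.971), Fam159b (0.969) and P4ha3 (0.967), and Runx1, which had the lowest values, to Ttc13 (0.902), Gzmf (0.894) and Lrp3 (0.888).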
